A study of Mus musculus with 6 samples.

Results

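The immediate-early, AP-1 and NF-kappaB response genes are a set of 38 genes that cells switch on soon after a stimulus. They were found by gene symbol among the array's probe sets. Where a gene had several, the brightest on average across the 6 arrays stood for it. Of the 38 genes, 36 had a probe set with their symbol alone and all 36 were tested, among 12598 genes in all. Areg, a ligand of the EGF receptor, and Nfkb1, an NF-kappaB subunit, were not analysed here. RNA came from the livers of 6 male mice, 3 with a liver knockout of ChREBP (ChLO) and 3 wild type (WT), with 1 Affymetrix array for each mouse. The ChLO mice carry floxed Chrebp alleles and an albumin-Cre transgene, whose promoter is active in hepatocytes. No control with floxed alleles or Cre alone is described, so Cre and the deletion cannot be told apart. The p-values set the difference between genotypes against the spread between these mice, with each gene's variance drawn towards that of genes of similar signal. All mice were 12 weeks old when a diet with 60% sucrose was given to them for 1 week, and the comparison asks which liver transcripts differ between knockout and wild type under that diet.

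As background, growth factors, cytokines and stress act through MAP kinases on factors already present in the cell, which turn on FOS, JUN and EGR genes within minutes. FOS and JUN proteins pair to form AP-1, a DNA-binding dimer. NF-kappaB is held in the cytoplasm by inhibitors such as the product of Nfkbia, and once released it induces adhesion molecules, cytokines and its own inhibitors. In liver, such genes are known to respond to partial hepatectomy, endotoxin and injury.

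Mlxipl, the gene that encodes ChREBP, read 10.34, 11.22 and 11.48 in ChLO 1, 2 and 3, against 12.61, 12.56 and 12.59 in WT 1, 2 and 3 (log2 signal, the unit of all values here). The ChLO arrays lay below all WT arrays, but the difference of -1.57 (SE 0.28) did not pass (limma adjusted p = 0.185). The position of its probe set relative to the deleted exons was not checked, so the remaining signal does not measure the deletion. Hepatocyte markers had a summed linear signal of 307792 to 375959 in ChLO and 382675 to 453840 in WT, from 8 of 10 listed genes. ChLO 3 stood apart from the other ChLO arrays in many of the results here, so values without it are given beside them. The 3′ minus 5′ log2 signal of Actb, a measure of RNA integrity, was 0.84, 1.03 and 1.46 in ChLO 1, 2 and 3 and between 1.13 and 1.38 in WT. The same measure for Gapdh was -0.25, -0.20 and -0.14 in ChLO 1, 2 and 3 and between -0.31 and -0.13 in WT. ChLO 3 thus lay above the WT range for Actb and inside it for Gapdh. Over all genes tested, the median difference was 0.06 and 0 genes passed an adjusted p of 0.05 (1129 had an unadjusted p under 0.05, 688 of them higher).

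Most members had a higher signal in ChLO livers, but the arrays that carried it differed between members. The members were chosen with earlier results of these data known, so their shares beside all genes describe the list and test nothing. Of the 36 measured, 33 were higher in ChLO, or 91.7%, against 56.5% of all genes tested. Their median difference was 0.86. None passed an adjusted p of 0.05, where the background was 0% of all genes (the smallest adjusted p among members was 0.167, for Myc). At an unadjusted p under 0.05, 11 members were higher and 0 lower, or 30.6%, against 5.46% of all genes tested that were higher. The 3 ChLO arrays lay above every WT array for 7 members, or 19.4%, against 9.04% of all genes. These 7 were Jun, Myc, Ier5, Dusp1, Dusp4, Dusp5 and Bcl3. All 36 measured members passed the filter on dim signals, 2 of them (Egr2 and Dusp5) with a WT mean under its level and 1 (Ereg) with a ChLO mean under it. Egr2 and Dusp5 are among the 11, and Dusp5 is among the 7. Both passed the filter because of their ChLO signals, so their p-values lend no support in any count here. Without ChLO 3 the median difference was 1.37 and 8 members rose at an adjusted p under 0.05, or 22.2%, against 1.6% of all genes that rose. These 8 were Myc, Ier5, Dusp5, Vcam1, Maff, Jund, Ier3 and Bcl3, of which Dusp5 was tested only because its ChLO signals carried it past the filter. At an unadjusted p under 0.05 there were then 24 members, or 66.7%, against 12.4% of all genes that were higher. Since ChLO 3 was singled out from the arrays left out in turn after its values were seen, the fit with all 6 arrays remains the reported one.

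**Figure D1:**
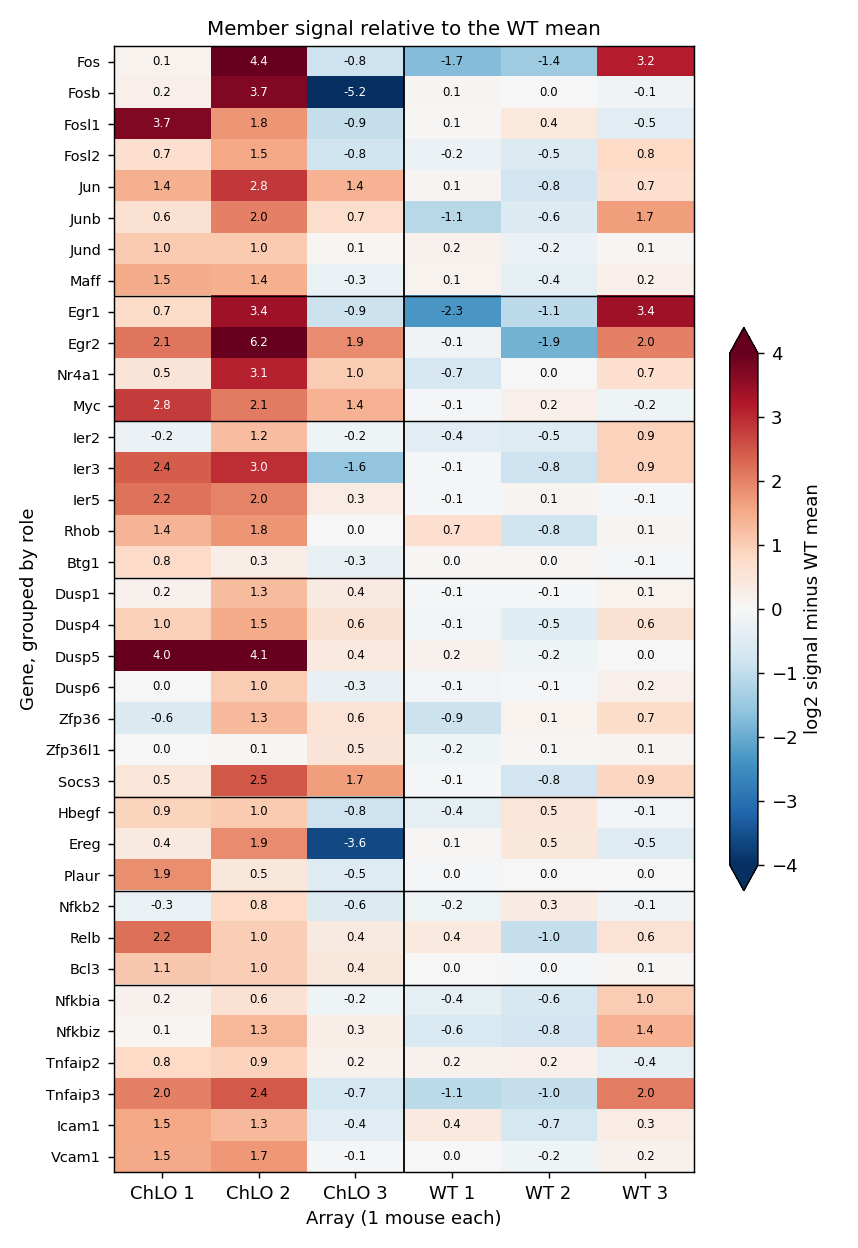
Log2 signal of the 36 measured members on each of the 6 arrays, minus the mean of the 3 WT arrays, with ChLO arrays on the left and genes grouped by role. Colours stop at 4 in either direction and the numbers give the value. ChLO 1 and ChLO 2 are mostly red, ChLO 3 is mixed, and WT 3 is red for Fos, Egr1, Egr2 and Tnfaip3.

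Set against the mean of the WT arrays, the members had a median of 0.84, 1.50 and -0.04 on ChLO arrays 1, 2 and 3, and of -0.08, -0.21 and 0.21 on WT arrays 1, 2 and 3. ChLO 2 was the highest of all 6 arrays for 23 members and ChLO 1 for 10, against 11.5% and 29.5% of all genes tested. The lowest array was ChLO 3 for 10 members, WT 2 for 15 and WT 1 for 8, against 16.6%, 14.9% and 17.2% of all genes tested. ChLO 1 and ChLO 2 were both above every WT array for 21 of the 36 members, against 23.3% of all genes tested. In ChLO 3, 7 of those 21 were above the WT range too, 8 were within it and 6 were below it.

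The promoters of 7 members are shown so that the sequences can be compared. Fos, Egr2, Zfp36, Tnfaip3 and Nfkbia had their highest signal of each genotype in ChLO 2 and WT 3, while Dusp5 and Bcl3 had ChLO signals above a nearly level WT group. These members are examples, and many others resembled neither. RefSeq promoters (GRCm38.p6, 250 bases before to 50 after the start) were found for 26 of the 36 measured members. Not found were Fosl1, Egr1, Myc, Ier2, Dusp4, Hbegf, Ereg, Relb, Nfkbiz and Vcam1. Capitals mark matches, on either strand, to the AP-1 motif TGANTCA, the cAMP response element (CRE) TGACGTCA, the EGR motif GCGNGGGCG, the CArG box bound by serum response factor, and the kappaB motif bound by NF-kappaB. Matches of a motif may overlap. The stretches are Fos at chr12:85473640-85473939 (plus strand), Egr2 at chr10:67537619-67537918 (plus strand), Zfp36 at chr7:28379179-28379478 (minus strand), Tnfaip3 at chr10:19015361-19015660 (minus strand), Nfkbia at chr12:55492598-55492897 (minus strand), Dusp5 at chr19:53528895-53529194 (plus strand) and Bcl3 at chr7:19822706-19823005 (minus strand).
Fos: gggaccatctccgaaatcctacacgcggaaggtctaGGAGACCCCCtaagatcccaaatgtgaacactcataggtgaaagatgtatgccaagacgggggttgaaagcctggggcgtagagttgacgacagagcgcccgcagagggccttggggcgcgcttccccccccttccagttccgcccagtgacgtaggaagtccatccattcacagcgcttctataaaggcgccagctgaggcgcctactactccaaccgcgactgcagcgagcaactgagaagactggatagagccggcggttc
Egr2: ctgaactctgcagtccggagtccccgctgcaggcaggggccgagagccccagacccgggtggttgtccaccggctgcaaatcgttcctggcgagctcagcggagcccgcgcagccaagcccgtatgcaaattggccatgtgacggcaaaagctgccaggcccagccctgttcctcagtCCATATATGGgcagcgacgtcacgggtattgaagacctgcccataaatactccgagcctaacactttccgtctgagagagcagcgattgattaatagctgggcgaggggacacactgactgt
Zfp36: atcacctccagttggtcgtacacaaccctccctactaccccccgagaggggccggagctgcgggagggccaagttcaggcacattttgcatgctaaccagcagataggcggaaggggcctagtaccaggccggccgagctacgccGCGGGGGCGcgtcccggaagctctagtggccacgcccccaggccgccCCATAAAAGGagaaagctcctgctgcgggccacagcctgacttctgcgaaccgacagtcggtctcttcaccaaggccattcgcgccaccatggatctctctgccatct
Tnfaip3: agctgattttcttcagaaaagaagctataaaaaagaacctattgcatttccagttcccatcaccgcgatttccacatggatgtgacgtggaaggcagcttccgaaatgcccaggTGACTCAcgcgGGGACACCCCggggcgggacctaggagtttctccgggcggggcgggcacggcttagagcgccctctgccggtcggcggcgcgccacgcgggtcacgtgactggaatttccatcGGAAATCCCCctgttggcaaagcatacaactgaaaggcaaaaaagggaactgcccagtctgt
Nfkbia: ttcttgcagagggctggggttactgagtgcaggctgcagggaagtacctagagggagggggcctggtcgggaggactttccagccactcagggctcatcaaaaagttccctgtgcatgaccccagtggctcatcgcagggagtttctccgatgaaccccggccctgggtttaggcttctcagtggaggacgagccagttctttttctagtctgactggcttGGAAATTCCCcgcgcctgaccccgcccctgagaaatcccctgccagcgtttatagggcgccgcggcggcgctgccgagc
Dusp5: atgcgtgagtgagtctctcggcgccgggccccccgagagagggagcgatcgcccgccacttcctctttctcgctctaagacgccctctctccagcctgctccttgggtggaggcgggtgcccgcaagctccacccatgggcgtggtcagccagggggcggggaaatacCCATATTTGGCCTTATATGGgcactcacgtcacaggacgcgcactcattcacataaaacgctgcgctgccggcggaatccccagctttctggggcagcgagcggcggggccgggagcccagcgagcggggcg
Bcl3: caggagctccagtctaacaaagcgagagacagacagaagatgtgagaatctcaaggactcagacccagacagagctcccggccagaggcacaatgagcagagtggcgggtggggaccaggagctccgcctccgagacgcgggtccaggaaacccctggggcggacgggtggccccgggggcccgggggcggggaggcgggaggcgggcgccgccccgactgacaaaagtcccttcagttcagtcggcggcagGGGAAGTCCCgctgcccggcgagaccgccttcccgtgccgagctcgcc

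A kappaB match stood in a promoter of 12 of the 26 members, or 46.2%, against 9.55% of the 27025 genes in the promoter table. EGR matches were found in 8 members, or 30.8%, against 6.27% of genes. CArG boxes were in 3 members (Egr2, Dusp5 and Zfp36), or 11.5%, against 1.81% of genes. AP-1 matches were in 4 members, or 15.4%, against 8.97%, and CREs in 2 (Dusp1 and Maff), or 7.69%, against 2.03%. Genes with several starts had several stretches searched, and the shares describe these windows only. The members were listed as immediate-early, AP-1 and NF-kappaB response genes, so an excess of such matches says nothing about these livers. In Dusp5 the 2 CArG boxes stand side by side, their first bases 82 and 72 bases before the start. Tnfaip3 holds an AP-1 match and 2 kappaB matches in the stretch shown, and Nfkbia a kappaB match 29 bases before its start. Fos has a kappaB match 214 bases before its start, and Bcl3 has one whose first base lies 3 bases after it. CArG boxes occurred in Egr2 and Zfp36, which were highest in ChLO 2 and WT 3, and in Dusp5, which was nearly level across WT.

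The AP-1 subunits varied widely within genotypes. Of 8, 7 were higher in ChLO, 2 of them at an unadjusted p under 0.05, with a median difference of 1.00. For this and the other counts by role, the background was 56.5% of all genes tested that were higher. At an unadjusted p under 0.05 it was 5.46%. Without ChLO 2 the sign of Fosl2 turned (-0.0583), as did that of Fos. Fos read 10.30, 14.54 and 9.31 in ChLO 1, 2 and 3, against 8.42, 8.74 and 13.31 in WT 1, 2 and 3. ChLO 2 and WT 3 were high and the groups overlapped, with a difference of 1.23 (SE 1.61, limma adjusted p = 0.818). Without ChLO 2 it was -0.35. Junb, another JUN family subunit, read 9.36, 10.74 and 9.43 in ChLO, against 7.63, 8.18 and 10.40 in WT. WT 3 again lay close to ChLO 2, and the difference was 1.11 (SE 0.70).

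Jun, the partner of Fos, separated the genotypes. It read 11.90, 13.30 and 11.87 in ChLO, against 10.60, 9.71 and 11.14 in WT, so all ChLO arrays lay above all WT arrays. The difference was 1.88 (SE 0.47), or 3.68-fold higher in ChLO, with an unadjusted p of 0.00411 and an adjusted p of 0.385. Its other probe set past the filter differed by 1.71. Jund, a subunit present in unstimulated cells as well, read 12.40, 12.39 and 11.43 in ChLO, against 11.53, 11.11 and 11.43 in WT, where ChLO 3 lay inside the WT range. It differed by 0.72 (SE 0.28, adjusted p = 0.532), and rose by 1.04 without ChLO 3 (SE 0.18, adjusted p = 0.0354). The other probe set of Jund, which lay under the filter level, went the other way, by -1.33.

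Among the other AP-1 proteins, Maff, a small Maf protein without a transactivation domain, read 9.53, 9.48 and 7.79 in ChLO, against 8.19, 7.68 and 8.26 in WT. It rose by 1.46 without ChLO 3 (SE 0.25, adjusted p = 0.0344) and differed by 0.89 (SE 0.47) with it. Fosl1, or Fra-1, read 9.27, 7.33 and 4.61 in ChLO, against 5.62, 5.97 and 5.09 in WT, with the highest value in ChLO 1 and the lowest in ChLO 3. Fosl2, or Fra-2, ranged from 7.25 to 9.57 in ChLO and from 7.48 to 8.81 in WT. Fosb had 6.37, 9.87 and 0.99 in ChLO, against 6.28, 6.18 and 6.02 in WT. Its sign depended on ChLO 3, with a difference of -0.42 (SE 1.88) over all arrays and 1.96 without that array.

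**Figure D2:**
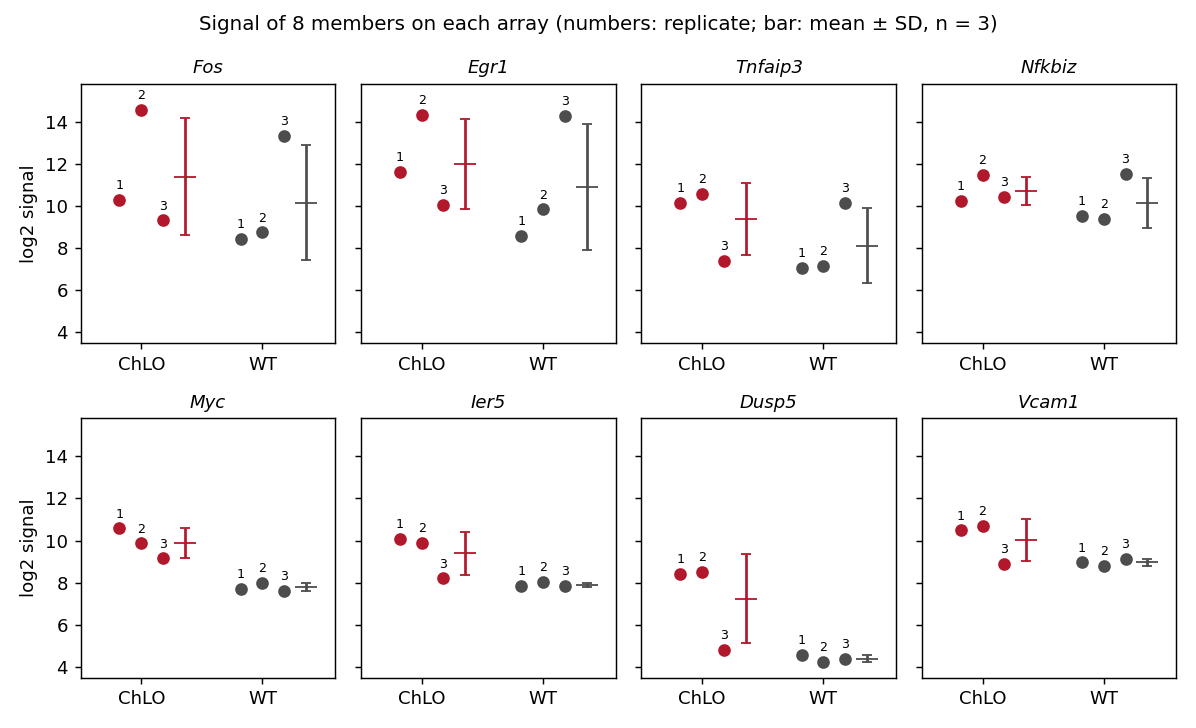
Log2 signal of 8 members in the 3 ChLO arrays (red, left) and the 3 WT arrays (grey, right). Numbers give the replicate, and bars the mean with the SD (n = 3). Fos, Egr1, Tnfaip3 and Nfkbiz are high in ChLO 2 and WT 3, and Tnfaip3 in ChLO 1 too. Myc, Ier5, Dusp5 and Vcam1 vary little across WT.

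All 4 other immediate-early transcription factors were higher in ChLO, 3 of them (Egr2, Nr4a1 and Myc) at an unadjusted p under 0.05. Their median difference was 1.82, and the p-value of Egr2 lends no support, as explained below. The sign of Egr1 turned without ChLO 2 (-0.0593) and without WT 1 (-0.0696). Myc separated the groups and Egr1 did not. Myc, a driver of growth and ribosome production, read 10.58, 9.87 and 9.16 in ChLO, against 7.73, 8.00 and 7.62 in WT. Its group means were 9.87 ± 0.71 in ChLO and 7.78 ± 0.19 in WT (SD, n = 3 each), and the lowest ChLO array lay above the highest WT array by more than the WT spread. The difference was 2.09 (SE 0.35), or 4.25-fold higher in ChLO, with an unadjusted p of 0.000354 and an adjusted p of 0.167. Without ChLO 3, Myc rose by 2.44 (SE 0.27, adjusted p = 0.0134).

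Egr1, a zinc finger factor induced along with Fos, read 11.63, 14.30 and 10.03 in ChLO, against 8.56, 9.84 and 14.28 in WT. ChLO 2 and WT 3 were nearly equal, and the difference was 1.10 (SE 1.53, adjusted p = 0.830). Egr2, a related factor, read 6.48, 10.50 and 6.23 in ChLO, against 4.21, 2.45 and 6.37 in WT. Its WT mean of 4.34 lay under the filter level of 5.50, so Egr2 was kept because of its ChLO values and its p-values lend no support. Its difference of 3.39 (SE 1.33, adjusted p = 0.532) is no firm fold. Nr4a1, an orphan nuclear receptor also called Nur77, read 8.76, 11.33 and 9.26 in ChLO, against 7.56, 8.25 and 8.89 in WT. Only ChLO 1 overlapped with WT there, and the difference was 1.55 (SE 0.65, adjusted p = 0.549).

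The 5 remaining immediate-early products were all higher in ChLO, 1 of them (Ier5) at an unadjusted p under 0.05, with a median difference of 1.04. The sign turned for Ier2 without ChLO 2 (-0.21) and for Btg1 without ChLO 1 (-0.00626). Ier5, a regulator linked to heat shock factor and cell division, read 10.09, 9.90 and 8.21 in ChLO, against 7.85, 8.03 and 7.85 in WT. All ChLO arrays were above WT, ChLO 3 only narrowly, with a difference of 1.49 (SE 0.46, adjusted p = 0.455) that reached 2.08 without ChLO 3 (SE 0.21, adjusted p = 0.0134). Ier3, a stress-induced survival factor, read 9.70, 10.22 and 5.69 in ChLO, against 7.19, 6.43 and 8.17 in WT. ChLO 3 was the lowest of all 6 arrays, and Ier3 rose by 2.70 without it (SE 0.47, adjusted p = 0.0351) but differed by 1.27 (SE 1.10) with it. Ier2, a nuclear early-response protein, ranged from 10.18 to 11.65 in ChLO and from 9.90 to 11.35 in WT. Rhob, a small GTPase of endosomes, ranged from 9.59 to 11.37 in ChLO and from 8.81 to 10.28 in WT. Btg1, an antiproliferative protein, ranged from 11.85 to 12.89 in ChLO and from 12.06 to 12.17 in WT, and none of these 3 passed in either fit.

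All 7 feedback regulators were higher in ChLO, 3 of them (Dusp4, Dusp5 and Socs3) at an unadjusted p under 0.05, with a median difference of 0.59. The p-value of Dusp5 lends no support, as explained below. The sign turned without ChLO 2 for Dusp6 (-0.16) and Zfp36 (-0.00545). Their largest difference was that of Dusp5, a nuclear phosphatase of ERK. Dusp5 read 8.44, 8.51 and 4.80 in ChLO, against 4.57, 4.25 and 4.40 in WT. ChLO 1 and ChLO 2 were far above WT, while ChLO 3 exceeded the highest WT array by little and, like all WT arrays, lay under the filter level. The difference was 2.84 (SE 0.97, adjusted p = 0.482), and Dusp5 rose by 4.07 without ChLO 3 (SE 0.48, adjusted p = 0.0134). Dusp5 passed the filter only through ChLO 1 and ChLO 2, the arrays where it is high, so it had to differ and its p-values lend no support. With WT signals this dim, its 7.17-fold and 16.7-fold differences are uncertain too.

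Dusp4, another nuclear MAP kinase phosphatase, read 7.52, 8.02 and 7.18 in ChLO, against 6.44, 6.06 and 7.16 in WT. The groups did not overlap, with ChLO 3 and WT 3 almost touching, and the difference was 1.02 (SE 0.40, adjusted p = 0.531). Dusp1, a phosphatase of p38, JNK and ERK, read 12.29, 13.40 and 12.48 in ChLO, against 12.05, 12.08 and 12.27 in WT. These groups did not overlap either, but ChLO 1 and WT 3 were close and the difference of 0.59 (SE 0.29) had an unadjusted p of 0.0727. Dusp6, the cytoplasmic ERK phosphatase, ranged from 12.28 to 13.58 in ChLO and from 12.46 to 12.79 in WT.

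Socs3, which shuts off cytokine signalling through STAT3, read 8.78, 10.79 and 9.96 in ChLO, against 8.21, 7.51 and 9.14 in WT. ChLO 1 overlapped with WT 3, and the difference was 1.55 (SE 0.56, adjusted p = 0.501). Its other 2 probe sets differed in the same direction, by 1.22 and 0.91. Zfp36, or tristetraprolin, which marks cytokine mRNAs for decay, read 11.12, 13.01 and 12.28 in ChLO, against 10.84, 11.84 and 12.43 in WT, with ChLO 2 and WT 3 the highest arrays of their groups. Zfp36l1, a relative of it, had the narrowest range of all members, from 12.72 to 13.25 in ChLO and from 12.58 to 12.84 in WT.

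Neither the EGF receptor ligands nor Plaur separated the genotypes, with 2 of 3 higher in ChLO and a median difference of 0.37. Hbegf, heparin-binding EGF, read 7.54, 7.69 and 5.81 in ChLO, against 6.27, 7.11 and 6.54 in WT. Ereg, epiregulin, was the dimmest member by mean, at 6.19, 7.69 and 2.22 in ChLO, against 5.87, 6.27 and 5.30 in WT. Both were lowest in ChLO 3, and the difference of Ereg was -0.45 (SE 1.27) with that array and 1.12 without it. Plaur, the urokinase receptor, read 9.14, 7.74 and 6.77 in ChLO, against 7.24, 7.30 and 7.29 in WT. WT values lay within a narrow band there, with ChLO 1 and ChLO 2 above it and ChLO 3 below it (difference 0.61, SE 0.54, adjusted p = 0.732).

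Of the 3 NF-kappaB subunits and cofactors measured, 2 were higher in ChLO, with a median difference of 0.84. Bcl3, a nuclear IkappaB protein that works with p50 and p52, read 9.72, 9.63 and 9.08 in ChLO, against 8.62, 8.61 and 8.70 in WT. Every ChLO array lay above every WT array, the means being 9.48 ± 0.34 in ChLO and 8.64 ± 0.05 in WT (SD, n = 3 each). The difference was 0.84 (SE 0.22), or 1.79-fold higher in ChLO, with an unadjusted p of 0.00561 and an adjusted p of 0.410, and Bcl3 rose by 1.03 without ChLO 3 (SE 0.19, adjusted p = 0.0421). Relb, a subunit of the non-canonical pathway, read 8.11, 6.88 and 6.26 in ChLO, against 6.29, 4.95 and 6.47 in WT, and ChLO 3 was inside the WT range.

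Nfkb2, which encodes p100 and p52, gave different answers by probe set. The brighter one, on which the tests rest, read 6.36, 7.41 and 6.08 in ChLO, against 6.44, 6.97 and 6.49 in WT, a difference of -0.02 (SE 0.44). The other read 8.88, 7.60 and 5.19 in ChLO, against 3.72, 4.46 and 3.72 in WT, with all ChLO arrays above WT and a difference of 3.26. That probe set was under the filter level of 5.50 in ChLO 3 and in all WT arrays. It passed the filter only through ChLO 1 and ChLO 2, so its difference lends no support. Since the 2 probe sets differ, no direction is given for Nfkb2. Among all members, 16 had more than 1 probe set, and 16 of their 19 other probe sets past the filter had the sign of the chosen one. The 3 that did not belonged to Nfkb2, Nfkbia and Tnfaip2.

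All 6 inhibitors and induced genes of NF-kappaB were higher in ChLO, 1 of them (Vcam1) at an unadjusted p under 0.05, with a median difference of 0.72. The sign of Nfkbia turned without ChLO 2 (-0.0163) and without WT 2 (-0.13), and 1 of its other probe sets differed by -0.30. The inhibitors were high in WT 3 as well as in ChLO 2. Nfkbia, which encodes IkappaB-alpha, read 13.49, 13.93 and 13.09 in ChLO, against 12.92, 12.66 and 14.33 in WT. WT 3 was the highest of all 6 arrays, and the difference was 0.20 (SE 0.43, adjusted p = 0.899). Nfkbiz, the nuclear inhibitor IkappaB-zeta, read 10.23, 11.47 and 10.43 in ChLO, against 9.53, 9.39 and 11.52 in WT. Tnfaip3, or A20, which ends NF-kappaB signalling by editing ubiquitin chains, read 10.14, 10.57 and 7.40 in ChLO, against 7.05, 7.15 and 10.16 in WT. Here ChLO 1, ChLO 2 and WT 3 were high and the other arrays low, so the difference of 1.25 (SE 1.03) had an adjusted p of 0.713.

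The induced adhesion molecules looked different. Vcam1, which binds leukocyte integrins, read 10.49, 10.69 and 8.88 in ChLO, against 8.97, 8.79 and 9.14 in WT. ChLO 3 was inside the WT range, and the difference was 1.05 (SE 0.44, adjusted p = 0.549). Without ChLO 3, Vcam1 rose by 1.62 (SE 0.20, adjusted p = 0.0138). Its 2 other probe sets differed by 0.75 and 0.85. Icam1, a ligand of LFA-1, read 10.32, 10.10 and 8.36 in ChLO, against 9.18, 8.08 and 9.10 in WT (difference 0.81, SE 0.53, adjusted p = 0.661, and 0.0742 without ChLO 3). Tnfaip2, a TNF-induced protein of membrane protrusions, ranged from 8.70 to 9.43 in ChLO and from 8.14 to 8.74 in WT.

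**Figure D3:**
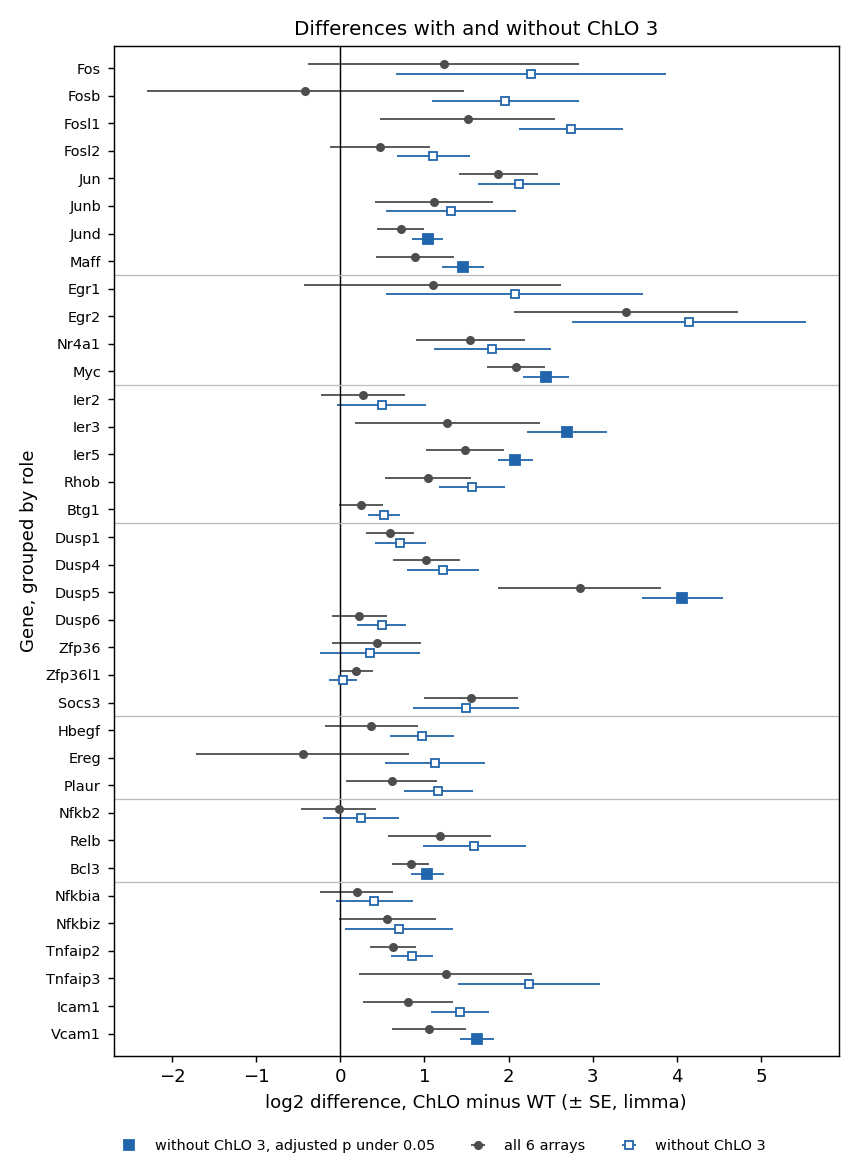
Log2 difference, ChLO minus WT, with its standard error from limma, for the 36 measured members grouped by role. Grey points use all 6 arrays and blue squares leave out ChLO 3, filled where the adjusted p is under 0.05. The 8 filled squares are Jund, Maff, Myc, Ier3, Ier5, Dusp5, Bcl3 and Vcam1, and no grey point passes.

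ChLO 2 and WT 3 shared high signals of some members. For 11 members, ChLO 2 lay over 1 log2 unit above the mean of ChLO 1 and ChLO 3, and WT 3 lay over 1 unit above the mean of WT 1 and WT 2. They were Fos, Fosl2, Junb, Egr1, Egr2, Ier2, Ier3, Zfp36, Socs3, Nfkbiz and Tnfaip3, or 30.6% of the members, against 0.587% of all genes tested. A low ChLO 3 alone can also meet this rule. Ier3 and Tnfaip3 met it for ChLO 1 with WT 3 as well, so they were not high in ChLO 2 alone among the ChLO arrays. Fos exceeded its group by 4.74 in ChLO 2 and by 4.73 in WT 3, and Egr1 by 3.46 in ChLO 2 and by 5.08 in WT 3. This array pair and the level of 1 unit were chosen after the values were seen. In the other 8 pairs of a ChLO and a WT array, between 0 and 2 members met the same rule, against 0.318% to 1.52% of all genes. Over the 36 members the 2 deviations correlated at 0.46 (Pearson) and 0.44 (Spearman), against 0.10 (Pearson) over all genes. ChLO 1 and WT 1 gave similar correlations over the members, 0.45 and 0.58, without any member high in both. This describes genes that share the same 6 arrays, and genes are not independent replicates.

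**Figure D4:**
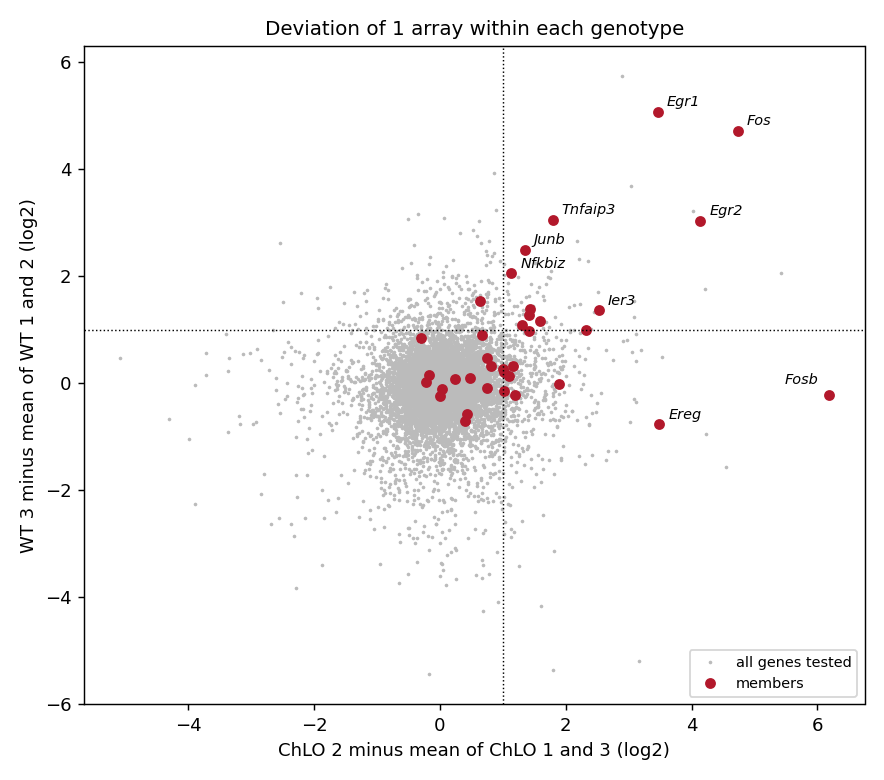
For each gene tested, the log2 signal of ChLO 2 minus the mean of the other 2 ChLO arrays (x axis) and that of WT 3 minus the mean of the other 2 WT arrays (y axis). Grey points are all genes tested, red points the 36 members, and dotted lines mark 1 log2 unit. The 11 members past both lines include Fos, Egr1 and Egr2, while Fosb and Ereg are high in ChLO 2 alone.

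The spread between WT arrays ranged widely among the members. The SD over WT arrays was 0.19 for Myc, 0.10 for Ier5, 0.16 for Dusp5, 0.18 for Vcam1, 0.05 for Bcl3 and 0.03 for Plaur, against 2.73 for Fos, 3.00 for Egr1 and 1.77 for Tnfaip3. Others lay between, such as Jun at 0.72, Rhob at 0.74 and Relb at 0.83, close to Fosl2 at 0.70, Zfp36 at 0.80 and Ier2 at 0.81. A high WT 3 raises this SD by construction. Ier3, at 0.87, was among the 11 members that met the rule for ChLO 2 and WT 3. It was also among the 8 that rose without ChLO 3. When ChLO 2 and WT 3 were both left out, the median difference over the members was 0.76 and 9 had an unadjusted p under 0.05, with 0 passing after adjustment. The share of all genes under that p was not counted in this fit, so the 9 cannot be judged against it. WT 3 was over 1 unit above the other WT arrays for 12 members and over 1 unit below them for 0. The same shares of all genes tested were 2.92% above and 4.91% below. ChLO 3 was over 1 unit below the other ChLO arrays for 19 members and above them for 0, against 9.8% below and 7.93% above for all genes.

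Genes listed for the signalling cascades differed less in the median than the members. The pathway lists here and below were also chosen with earlier results of these data known, so their counts describe the lists only. Over all genes tested, 56.5% were higher in ChLO. In a list of the EGF receptor and MAP kinase cascade, 10 of 17 tested genes were higher and 7 lower, with a median difference of 0.20 and 0 past the threshold. Egfr, the receptor for Hbegf and Ereg, was lower in ChLO at 12.19, 11.99 and 12.71, against 13.26, 13.97 and 14.46 in WT. All ChLO arrays lay below WT, with a difference of -1.60 (SE 0.32, adjusted p = 0.237), and Egfr fell by 1.81 without ChLO 3 (SE 0.32, adjusted p = 0.0354). Sos1, an exchange factor for RAS, differed by -0.59 (SE 0.18, adjusted p = 0.455). Spred1, an inhibitor of RAF activation, differed by 0.64 (SE 0.24) and Map2k1, the kinase MEK1, by 0.47 (SE 0.22).

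In the list of cytokine receptors and the NF-kappaB cascade, 18 of 20 tested genes were higher, with a median of 0.28 and 0 past the threshold. Tlr4, the endotoxin receptor, read 7.20, 7.16 and 7.22 in ChLO, against 5.49, 6.91 and 5.88 in WT, with all ChLO arrays above WT and a difference of 1.10 (SE 0.44, adjusted p = 0.534). Rel, the subunit c-Rel, differed by 0.89 (SE 0.42), Nfkbie, the inhibitor IkappaB-epsilon, by 0.82 (SE 0.42), and Nfkbib, IkappaB-beta, by 0.59 (SE 0.33). The sign of Nfkbib turned to -1.15 when probe sets that can match several transcripts were left out.

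Other early response genes resembled the members, with 19 of 20 higher, a median of 0.51 and 0 past the threshold. Without ChLO 3, 3 of the 20 rose past it, against 1.6% of all genes tested. Atf3, a stress-induced AP-1 relative, read 11.02, 11.58 and 7.19 in ChLO, against 7.71, 5.94 and 6.28 in WT. It differed by 3.29 (SE 1.07, adjusted p = 0.468) and rose by 4.66 without ChLO 3 (SE 0.50, adjusted p = 0.0134). Mcl1, a survival protein of the BCL2 family, read 13.10, 13.01 and 12.75 in ChLO, against 12.22, 12.34 and 12.35 in WT, with no overlap and a difference of 0.64 (SE 0.16, adjusted p = 0.393). Cebpd, an acute-phase transcription factor, differed by 1.05 (SE 0.34) and Btg2, an antiproliferative p53 target, by 1.49 (SE 0.49), again with no overlap.

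Of the other genes that NF-kappaB induces, 12 of 15 were higher, with a median of 0.39 and 0 past the threshold. Lcn2, an iron-scavenging acute-phase protein, read 13.25, 11.44 and 9.50 in ChLO, against 9.33, 8.90 and 8.12 in WT. It had no overlap, a difference of 2.61 (SE 0.83, adjusted p = 0.455) and a rise of 3.56 without ChLO 3 (SE 0.53, adjusted p = 0.0221). Ccl2, which attracts monocytes, had signals of 10.30, 9.08 and 6.15 in ChLO, against 3.44, 1.25 and 6.27 in WT, where WT 3 was again the highest of its group. Cxcl2, a neutrophil chemokine, read 8.91, 9.32 and 5.30 in ChLO, against 5.13, 4.67 and 7.22 in WT, in the manner of Tnfaip3. Birc2, an inhibitor of apoptosis, differed by 0.40 (SE 0.20, adjusted p = 0.598).

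Marker sums of several other liver cells were higher in ChLO 1 and ChLO 2, where many members were high. For Kupffer and other myeloid cells, the summed linear signal of 11 of 12 listed markers was 25628, 25674 and 14629 in ChLO 1, 2 and 3, against 15567 to 16900 in WT. Of the 10 tested markers in that list, 8 were higher in ChLO and 2 lower, against 56.5% of all genes tested that were higher. The groups overlapped for all 10. Lyz2, Cd14, Cd68 and Ptprc differed by 0.79, 1.79, 1.13 and 1.16. Among Kupffer cell markers, Marco differed by 0.75 and Cd5l by 0.35, while Clec4f and Vsig4 differed by -0.14 and -0.06. Adgre1 differed by 0.14 and Csf1r by 0.10. For stellate cells and fibroblasts (10 of 10 markers) the sum was 21826, 28183 and 10874 in ChLO, against 8649 to 13565 in WT. Neutrophil markers (6 of 8) summed to 1145, 1094 and 386 in ChLO and to 296 to 591 in WT, and bile duct markers (7 of 8) to 7430, 5186 and 3035 in ChLO and 3602 to 4144 in WT. Among neutrophil markers, S100a8, S100a9 and Csf3r differed by 1.04, 0.96 and 2.18 and Mpo by -1.05, all with overlap. Cdh1, which hepatocytes also express, made up most of the bile duct sum and differed by 0.21, with overlap. Of the other bile duct markers tested, Krt19, Epcam, Sox9 and Cldn4 differed by 0.62, 0.89, 0.23 and 2.74, and Krt7 by -0.12. Endothelial markers (10 of 10) summed to between 10990 and 14633 in ChLO and between 9829 and 12299 in WT, and markers of T, B and NK cells (8 of 9) to between 361 and 538 in ChLO and between 342 and 494 in WT. No marker is listed at 0, and Cxcr2, Cd4, Ncr1 and Cftr lay under the filter level on every array. In bulk liver, a change in the number of cells of a type and a change in RNA per cell cannot be told apart. The part of these cells in the members' differences was not tested. Among WT arrays, WT 3 had a Kupffer and myeloid sum of 15952, between those of the other WT arrays, and the highest neutrophil sum at 591.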

How the data were processed

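The authors deposited 1 table of log2 signals for 45101 probe sets on 6 arrays. MAS5, the single-array summary of Affymetrix, is named in the submitters' processing notes without version or parameters. Converted back to the linear scale, every array had a mean of 500 after 2% trimming at each end, so a change shared by most transcripts cannot be seen. Detection calls were not used here, and no count of reads exists behind an array value: the number of arrays limits the precision.

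Probe sets were named from the platform annotation, and those with several gene symbols or none were left unnamed. After removal of 64 control probe sets, those with a mean over the 6 arrays at or above the 40th percentile (a log2 signal of 5.50) were kept, 1 per gene with the highest mean, which gave 12598 genes. All 36 measured members were kept, so the filter removed none. ChLO was compared with WT in limma 3.58.1 under R 4.3.3 (lmFit and eBayes with a trend), with Benjamini-Hochberg adjustment over all genes tested and a threshold of 0.05. The procedure was tested on simulated data.

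The members and the gene lists were chosen with earlier results of these data known. Named genes are all members, Mlxipl, and the 4 genes with the smallest p in each of 4 pathway lists. Alternatives changed the scaling, filter, variance model, array weights, choice of probe set and replicate block, and left out each array in turn. Spike-in scaling, and the removal of ChLO 2 and WT 3 together, were added after seeing the data. Same-numbered arrays had deviations from their group means that correlated at 0.30, -0.17 and 0.06 for replicates 1, 2 and 3, and replicate numbers were not treated as pairs. Promoter sequences are from RefSeq, build GRCm38.p6. No genome build of the arrays is given in the sources used here.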

Additional observations from a re-analysis of the deposited data

How the results depend on the processing

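The median difference over the members stayed positive in every fit, from 0.56 to 1.37 when 1 array was left out, and its other values lay between 0.76 and 1.31. With all arrays, 0 members passed an adjusted p of 0.05, also at a threshold of 0.10 (where 14 of all genes passed), and the number at an unadjusted p under 0.05 was 11. Leaving out 1 array gave 0 to 8 members called, 4 to 24 members at an unadjusted p under 0.05, and 0 to 302 genes called in all. The highest values came without ChLO 3, and the 4 came without ChLO 2 and without WT 2 (7 without WT 1). With array weights 11 members and 568 genes passed, and 25 members had an unadjusted p under 0.05. That fit weighted ChLO 2 at 4.58 and ChLO 3 at 0.37 and its weights did not fully converge, and 6 of its members were among the 8 called without ChLO 3. Without a variance trend, 7 members had an unadjusted p under 0.05. The share of all genes higher at that p was counted only with all arrays (5.46%) and without ChLO 3 (12.4%). The member counts of the other fits therefore have no background beside them. Without a filter 3 of all genes passed. The replicate block left 0 members called and 1 gene in all. Spike-in scaling, chosen after seeing the data, moved the median of all genes by 0.25 and that of the members to 1.11.

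Signs turned for 14 of the 53 genes named. Leaving out 1 array gave differences of -0.35 to 2.81 for Fos, -2.48 to 1.96 for Fosb, -0.0583 to 1.10 for Fosl2, -0.0696 to 2.79 for Egr1, -0.21 to 0.73 for Ier2 and -0.00626 to 0.51 for Btg1. The ranges were -0.16 to 0.49 for Dusp6, -0.00545 to 0.94 for Zfp36, -1.61 to 1.12 for Ereg, -0.0190 to 1.17 for Plaur, -0.41 to 0.25 for Nfkb2 and -0.13 to 0.71 for Nfkbia. Array weights gave 2.80 for Fosb, 1.42 for Ereg and 0.60 for Nfkb2. Nfkb2 was also 1.62 as the mean of its probe sets and 0.23 with spike-in scaling. Nfkbib was -0.28 as the mean of its probe sets and -1.15 without those that can match several transcripts. Without ChLO 2 and WT 3 together, Dusp6 was -0.0545 and Hbegf -0.0203. The cause of these changes was not tested. Areg and Nfkb1 were not analysed here. With all arrays, the SE was largest for Fosb at 1.88, Fos at 1.61, Egr1 at 1.53, Egr2 at 1.33 and Ereg at 1.27. Fosb, Egr2 and Ereg are dim, as is Dusp5 (SE 0.97), while Fos and Egr1 are bright.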
